A study of Mus musculus with 20 samples.

Results

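Cytotoxic lymphocytes, the CD8 T cells and natural killer cells, kill by releasing granules. Perforin opens a route into the target cell and granzymes, serine proteases stored with it, then start cell death. The 9 genes described here are Prf1 (perforin), Gzma, Gzmb and Gzmk (granzymes), Nkg7 (a granule membrane protein that helps granules to be released), Cd8a and Cd8b1 (the chains of the CD8 co-receptor), and Eomes and Tbx21 (T-box transcription factors of cytotoxic cells). They were taken by name from the probe annotation of the array. The choice was made with their measured ratios in the dose groups of these same dams known, so their dose differences are given as a description. They were part of the fit across all genes, but whether they passed there supports nothing about them. Of the 9 genes 8 could be measured, out of 19914 genes tested in all, and 13 probes carried their names.

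The lungs came from time-mated, nulliparous young adult C57BL/6BomTac female mice, 5 dams in each group. Every dam was given 4 instillations into the trachea, on gestation days 7, 10, 15 and 18, and was killed 26 to 27 days after exposure, when its litter had been weaned. Control dams received the Milli Q water vehicle, and the exposed dams received Printex 90, a carbon black nanoparticle, which summed to 11 µg in the low, 54 µg in the medium and 268 µg in the high-dose group. All groups thus share pregnancy, birth, lactation and the instillation procedure, and no group was left without instillation. Each dam had its own 2-colour Agilent array, with lung RNA in Cy5, Stratagene's universal reference RNA in Cy3, and the dyes were not swapped.

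The value used throughout is the log2 ratio of lung over reference RNA, called the ratio here. No background was subtracted from it, so the ratios of dim probes also hold background, which can shift their differences either way. The lung channel was well above background for 64% to 78.3% of spots per array, pairs of arrays correlated at 0.951 to 0.988, and each array had a slope of 0.94 to 1.05 on the mean of the others. The tissue carried its label, since 14 of 14 lung epithelial and endothelial markers were measured, with a median ratio of 4.03 in high-dose and 3.85 in control dams. On the 5 slides that held controls each group always had the same position, so position and group cannot be told apart. Medium-dose dams 49 and 50 were alone on a further slide that held no control, so the medium-dose group was not balanced over slides. In whole lung, fewer cells of a type and less RNA per cell cannot be told apart either.

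The probes are 60-mers, and the stretches below are shown because the account of the granule and CD8 genes turns on which probe was read. Coordinates are those of the array annotation, build mm7. The Prf1 probe lies at chr10:60821367-60821426 on the plus strand and the Gzma probe at chr13:110251676-110251735 on the minus strand. The brightest Cd8b1 probe, at chr6:71355005-71355063, ends beside a polyadenylation hexamer, set in capitals, and its last 30 bases are given. The other probe named Cd8b1 is placed on another chromosome, at chr5:114364254-114364313 on the minus strand, and its first 30 bases are given. Of the 3 Cd8a probes, which lie in order along chromosome 6 at chr6:71391822-71391881, chr6:71395267-71395326 and chr6:71396848-71396907, the first is given whole and the other two by their first 30 bases.
Prf1 A_52_P335178: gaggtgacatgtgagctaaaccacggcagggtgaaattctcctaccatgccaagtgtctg
Gzma A_51_P162794: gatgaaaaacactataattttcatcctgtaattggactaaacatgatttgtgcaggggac
Cd8b1 A_51_P150433: cagagaagccacctcatgAATAAAagtttt
Cd8b1 A_52_P511269: gccatgatccagggaatgaaaagaaatttg
Cd8a A_52_P150547: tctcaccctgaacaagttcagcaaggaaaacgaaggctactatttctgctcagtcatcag
Cd8a A_51_P345121: ttaggtatgtgtctttagtatagcatgctt
Cd8a A_52_P443334: cctgaaggaactaagagtcacccatggtcc

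Perforin and granzyme B, which are stored together in the granule, were lower in every high-dose dam than in every control. The Prf1 ratio was 1.66, 1.42, 1.15, 1.12 and 1.41 in high-dose dams, against 1.97, 2.15, 2.20, 1.84 and 2.06 in control dams. The groups did not overlap, and the high-dose mean was 1.35 ± 0.22 against 2.04 ± 0.14 in controls (SD, n = 5 each), a difference of -0.69 ± 0.13 (SE), or 1.62-fold lower. On each of the 5 slides that held both groups the high-dose dam was the lower one, by -0.31 to -1.05. The ratio was 2.02, 1.69, 1.65, 1.57 and 2.09 in low-dose dams and 1.68, 2.24, 1.56, 1.94 and 1.57 in medium-dose dams, which overlapped with the control and the high-dose dams. Their means of 1.80 ± 0.23 and 1.80 ± 0.29 lay between those groups and did not differ from each other beyond their spread, and 3 of 5 dams in each lay below the lowest control. The order of the Prf1 means was therefore control, then low and medium together, then high, with only the high dose clear of the control values.

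Gzmb ratios were 1.89, 1.68, 1.74, 1.69 and 1.73 in high-dose dams, against 2.16, 2.28, 2.42, 2.57 and 2.35 in control dams. Here too the groups did not overlap, with a mean of 1.74 ± 0.09 at the high dose and 2.35 ± 0.15 in controls, a difference of -0.61 ± 0.13 or 1.52-fold lower. Within slides the difference was -0.26 to -0.88. Low-dose dams stood at 2.17, 1.78, 2.18, 2.30 and 2.44 and medium-dose dams at 1.87, 2.62, 2.00, 2.16 and 1.86, and the means of both, 2.17 ± 0.25 and 2.10 ± 0.31, lay within 1 SD of each other. Medium-dose dam 47 had a Gzmb ratio above every control, while 3 of 5 medium-dose dams were below every control.

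Gzma, a granzyme that cleaves after basic residues, followed with some overlap. Its ratio was 2.49, 2.31, 2.03, 1.96 and 1.80 in high-dose dams, against 2.40, 2.56, 2.67, 2.84 and 2.88 in control dams, so that 4 of 5 high-dose dams lay below every control and dam 60 did not. The means were 2.12 ± 0.28 and 2.67 ± 0.20, a difference of -0.55 ± 0.15. Low-dose dams ranged between 2.36 and 2.70 (difference -0.18 ± 0.15) and medium-dose dams between 2.23 and 3.13 (difference -0.17 ± 0.15), the highest being dam 47 again. Gzmk, a granzyme of memory-type CD8 T cells, could not be measured: its lung signal was well above background on 0 of 20 arrays, and it was left out of the test and of every fold.

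Nkg7 moved less in the ratio than the granule contents. Its ratio was 2.82, 2.40, 2.69, 2.48 and 2.46 in high-dose dams, against 2.62, 2.55, 3.26, 2.86 and 2.63 in control dams, and the groups overlapped. The difference was -0.09 ± 0.13 at the low, -0.05 ± 0.13 at the medium and -0.22 ± 0.13 at the high dose. A second Nkg7 probe gave -0.07 ± 0.13 at the low, -0.01 ± 0.13 at the medium and -0.29 ± 0.13 at the high dose. Both channels were lower on high-dose arrays, in scanner units above background. For the first probe the lung signal was 1780 ± 385 at the high dose and 2780 ± 463 in controls, with overlap. Its reference signal was 111 ± 23.9 and 148 ± 25.2. For the second probe the lung signal was 607 ± 143 and 976 ± 159, and the reference signal 72.5 ± 7.28 and 93.3 ± 20.6.

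**Figure D1:**
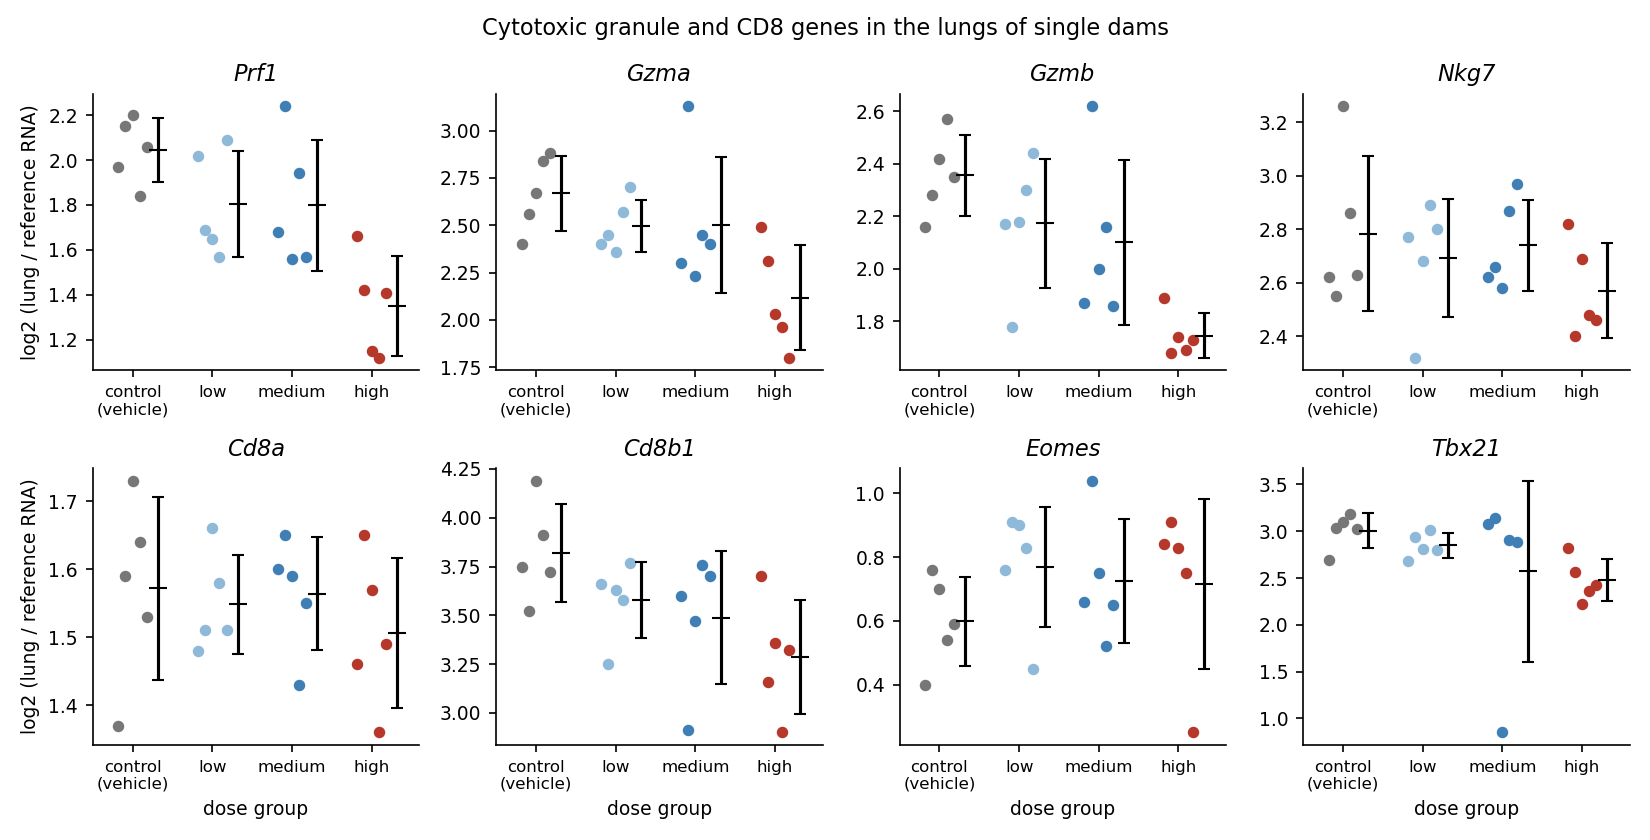
Log2 ratio of lung over reference RNA (vertical axes, each with its own range that does not start at 0) for the 8 measured genes, by dose group with the vehicle at the left. Points are single dams and bars the mean ± SD (n = 5); Prf1 and Gzmb are the genes whose high-dose dams all lie below all controls, and 1 medium-dose dam stands far below the rest for Tbx21.

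The CD8 chains gave different pictures by probe. For Cd8b1 the brightest probe read 3.70, 3.16, 3.36, 2.90 and 3.32 in high-dose dams, against 3.75, 3.52, 4.19, 3.91 and 3.72 in control dams. All but high-dose dam 60 lay below the controls, and the means were 3.29 ± 0.29 and 3.82 ± 0.25, a difference of -0.53 ± 0.16. Low-dose dams read 3.66, 3.25, 3.63, 3.58 and 3.77 and medium-dose dams 3.60, 2.91, 3.47, 3.76 and 3.70. Their means, 3.58 ± 0.19 and 3.49 ± 0.34, lay between those of the control and high-dose dams and within 1 SD of each other. The other probe named Cd8b1, which the annotation places on chromosome 5, went the opposite way, with -0.99 ± 0.09 in high-dose and -1.17 ± 0.04 in control dams and no overlap. The annotation thus sets it apart from the gene on chromosome 6, and the Cd8b1 values in the rest of the text are those of the chromosome 6 probe.

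The brightest Cd8a probe showed hardly any dose difference in its ratio. It read 1.46, 1.65, 1.57, 1.36 and 1.49 in high-dose dams, against 1.37, 1.59, 1.73, 1.64 and 1.53 in control dams, a difference of -0.07 ± 0.06 with wide overlap. Low-dose dams ranged between 1.48 and 1.66 and medium-dose dams between 1.43 and 1.65, so that no order of the groups stood beyond their spread. Both other Cd8a probes, by contrast, had a lower ratio in every high-dose dam than in every control. The one printed on 10 spots read 1.23 ± 0.14 in high-dose and 1.60 ± 0.16 in control dams (difference -0.37 ± 0.08), and the dim one read 0.12 ± 0.09 in high-dose and 0.49 ± 0.16 in control dams (difference -0.36 ± 0.07). The 10-spot probe was lower at the low dose too, at 1.32 ± 0.12, with 4 of 5 dams below every control. In the reference channel these probes were well above background on 13 arrays for the brightest, 5 for the 10-spot and 3 for the dim one, of 20. The reference signal of the dim one averaged 38.3 ± 10.2 units on high-dose and 20.8 ± 5.35 on control arrays. That of the 10-spot one averaged 33.4 ± 5.35 and 23.5 ± 4.6, and that of the brightest 32.1 ± 4.95 and 31.0 ± 4.06. On low- and medium-dose arrays it averaged 24.2 ± 6.22 and 29.1 ± 4.51 for the dim one, and 26.9 ± 5.27 and 29.8 ± 7.4 for the 10-spot one. In the lung channel high-dose and control dams overlapped for all 3 probes, with 44.3 ± 18.6 and 59.6 ± 14.9 units for the dim one. For the 10-spot one the lung signal was 199 ± 55.9 and 269 ± 50.3, and for the brightest 263 ± 74.2 and 319 ± 45.2. The part of the reference signal in the difference between these probes was not tested.

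**Figure D2:**
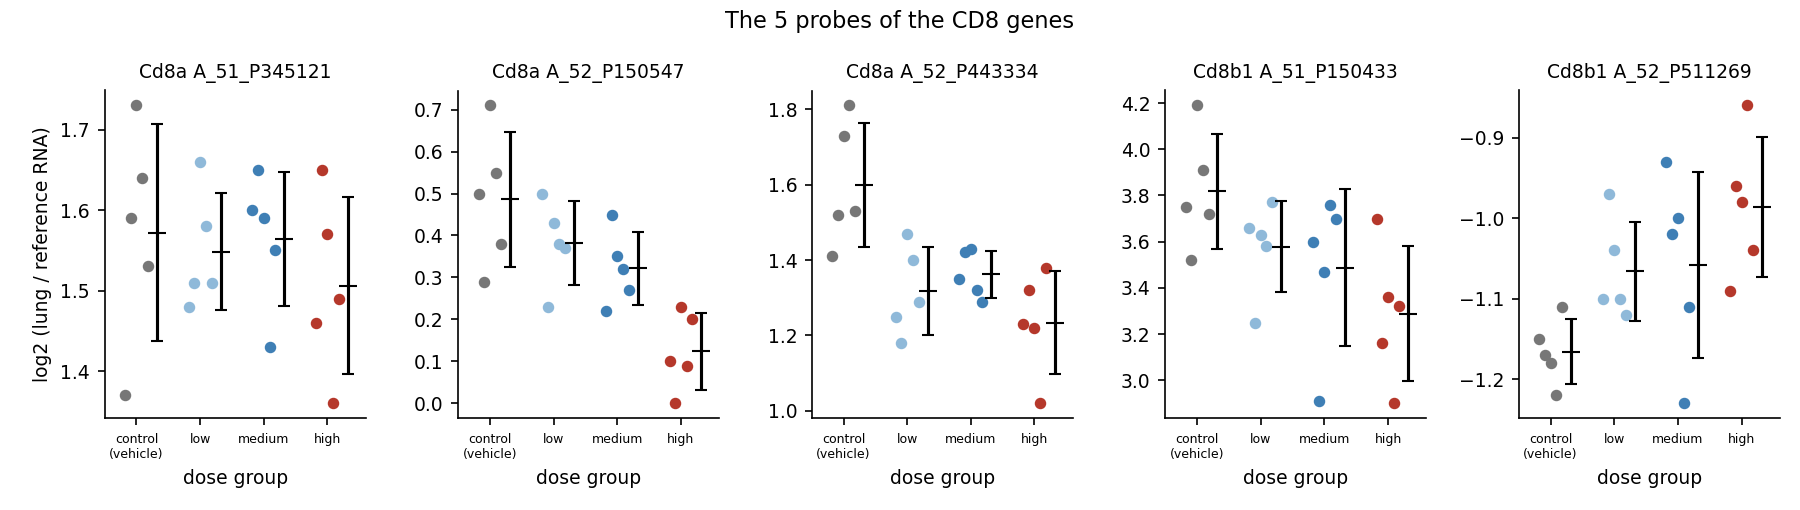
Log2 ratio of lung over reference RNA by dose group for the 3 Cd8a and 2 Cd8b1 probes, points for dams and bars for the mean ± SD (n = 5), each vertical axis with its own range. The brightest Cd8a probe is level, the other Cd8a probes and the chromosome 6 Cd8b1 probe are lower at the high dose, and the Cd8b1 probe placed on chromosome 5 is higher.

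The transcription factors differed from each other. Tbx21, which drives the granule genes and interferon gamma, read 2.82, 2.56, 2.22, 2.36 and 2.43 in high-dose dams, against 2.69, 3.04, 3.1, 3.18 and 3.02 in control dams. Of the high-dose dams 4 lay below every control, and the means were 2.48 ± 0.22 and 3.01 ± 0.19, a difference of -0.53 ± 0.29. The SE is wide, and 1 spot stood apart: medium-dose dam 48 read 0.85, while the other medium-dose dams read 2.88 to 3.14. On that array the lung signal of the spot was ordinary, at 1100 units, but its reference signal was 234 units, against 35.5 to 67 on the other medium-dose arrays. Without that dam the medium-dose difference was -0.01, in place of -0.43. Low-dose dams lay between 2.68 and 3.01, a difference of -0.16 ± 0.29. Eomes, its close relative, did not share the pattern: it read 0.84, 0.91, 0.83, 0.75 and 0.25 in high-dose dams, against 0.40, 0.76, 0.70, 0.54 and 0.59 in control dams. The groups overlapped, with a difference of 0.12 ± 0.12, and the low and medium doses stood at 0.17 ± 0.12 and 0.13 ± 0.12. Its reference signal was well above background on 1 of 20 arrays, and with the lung channel alone the high-dose difference was -0.14.

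**Figure D3:**
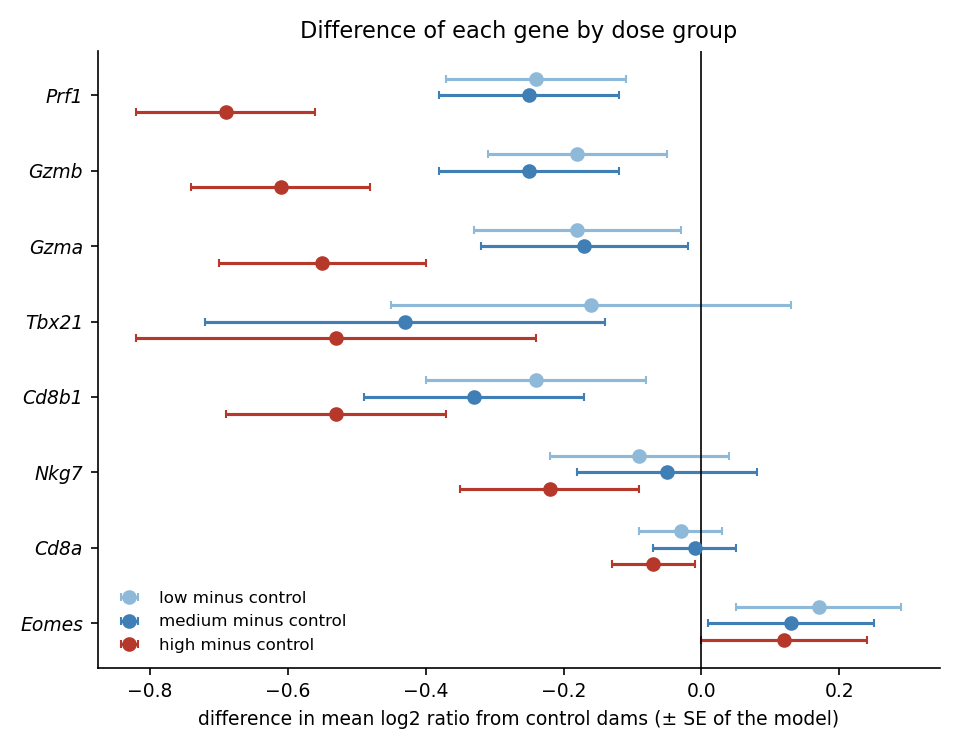
Difference of the mean log2 ratio from the control dams (horizontal axis) for the 8 measured genes at each dose, with the SE of the model as bars; the order within a gene is low, medium, high from top to bottom. At the high dose 7 of 8 genes lie left of 0, and Eomes lies right of it at all 3 doses.

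In the fit across all genes 2 of the 8 measured genes, Prf1 and Gzmb, passed at the high dose, both lower. Over all genes 1.04% passed there (Benjamini-Hochberg adjusted p under 0.05 by limma), 0.532% lower and 0.507% higher. Since the 9 genes were picked on this contrast, nothing is read from that count. All high-dose dams lay below all controls for 2 of 8, against 1.98% of all genes. At the medium and the low dose 0 of 8 passed, and of all genes 0.00502% passed at each dose, which is 1 gene, Siglech, a receptor of plasmacytoid dendritic cells, named after its values were seen and lower at both doses. Likewise 0 of 8 had all dams below all controls at the low or medium dose, against 0.874% and 1.27% of all genes. The median difference of the 8 genes was -0.17 at the low, -0.21 at the medium and -0.53 at the high dose, beside medians over all genes of -0.0003, 0.0068 and -0.009 at the same doses. These comparisons share their control dams, so that the sign of a gene at 1 dose is not independent of its sign at another.

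The calls depended on how the spots were turned into ratios. With normexp background correction of the scanner signals, with the software's own log ratio, or with the lung channel alone, 0 of 8 genes passed at the high dose. In all 15, 9 and 18 genes passed there, every one of them higher. The Prf1 difference was -0.16 to -0.77 over all 35 alternative settings and that of Gzmb -0.21 to -0.66, and neither turned positive. Prf1 passed in 32 of the 35 and Gzmb in 26. The Gzmb call was lost with quantile scaling, and also when control 14, 15 or 18, or dam 62 or 63 of the high dose, was left out. Other genes of the group passed in some settings: Cd8b1 with the slide as a block, Cd8b1 and Gzma with the slide as a random block, Tbx21 when dam 48 of the medium dose was left out, Gzma when dam 60 of the high or dam 47 of the medium dose was, and Cd8a when its probes were averaged.

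The signals behind the ratios were read channel by channel, in scanner units above local background. The Prf1 lung signal was 324, 404, 261, 167 and 246 in high-dose dams, against 424, 534, 474, 526 and 494 in control dams, so the groups did not overlap in the lung channel either. Its reference signal was 40.4 ± 8.32 on high-dose and 32.7 ± 6.32 on control arrays, although the reference RNA was the same. For Gzmb the lung signal averaged 464 ± 98.5 units at the high dose and 746 ± 139 in controls, with overlap, and the reference signal 45.3 ± 9.00 and 39.2 ± 5.48. For Gzma the lung averages were 508 ± 140 and 864 ± 175, with reference averages of 35.7 ± 5.04 and 34.3 ± 3.96. Both channels thus entered the Prf1 and Gzmb ratios, and the part of the reference signal in the result was not tested. In the Gzmk probe, dark in lung, the reference signal was 37.0 ± 8.28 on high-dose and 18.9 ± 2.30 on control arrays. On low- and medium-dose arrays it was 24.9 ± 3.52 and 30.8 ± 4.62. For Prf1 these averages were 33.0 ± 4.42 and 37.0 ± 9.29, for Gzmb 35.9 ± 2.92 and 44.5 ± 17.6. For Gzma they were 32.8 ± 3.78 and 36.9 ± 7.5. From control to high dose the reference average thus rose in dose order for Gzmk and Prf1, but not for Gzmb and Gzma. Its part in the low- and medium-dose ratios was not tested either.

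**Figure D4:**
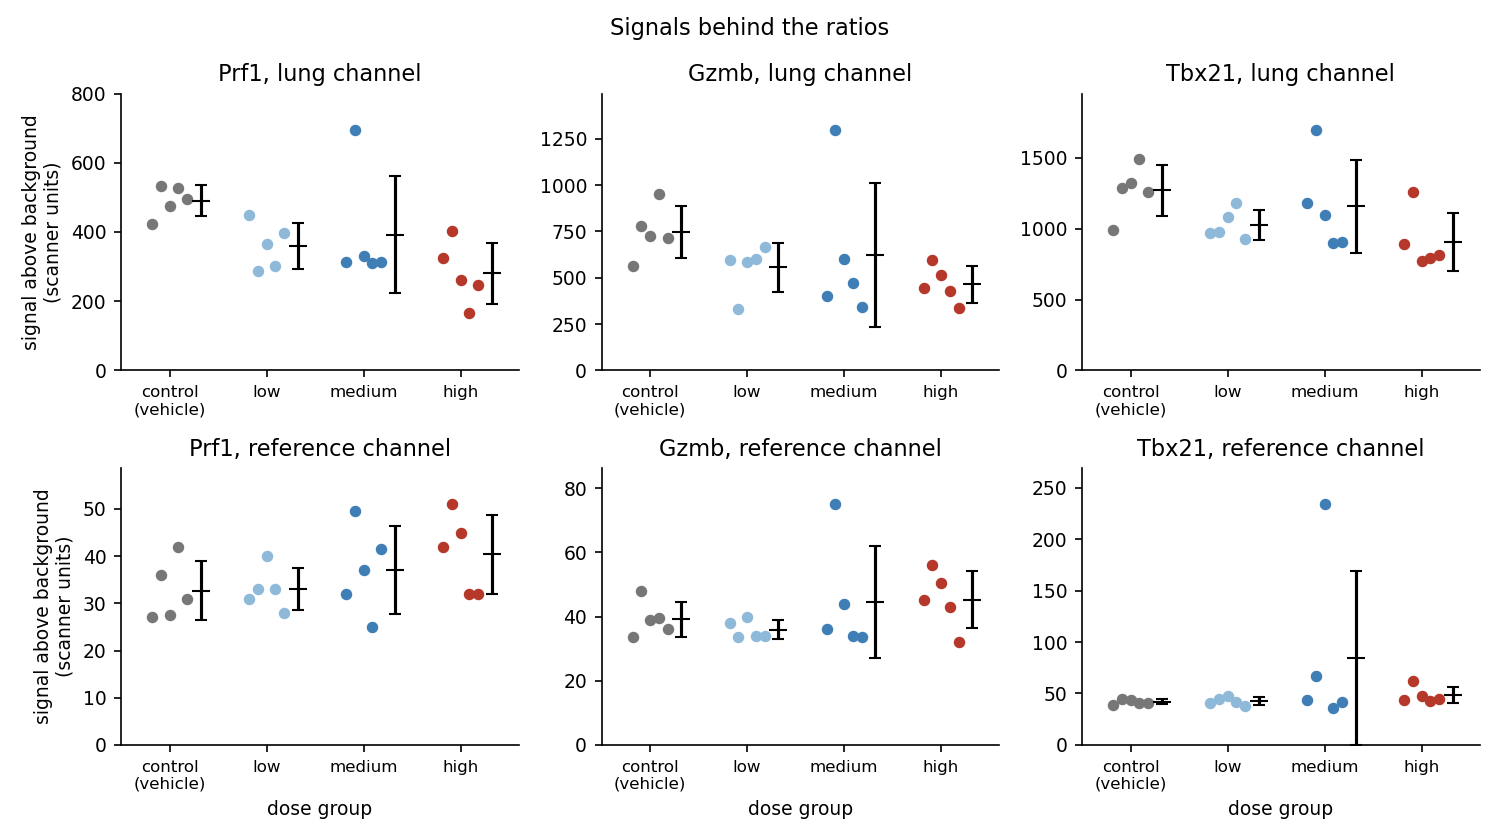
Signals above local background in scanner units (vertical axes from 0) for Prf1, Gzmb and Tbx21, lung channel above and reference channel below, points for dams and bars for the mean ± SD (n = 5). The Prf1 lung signal does not overlap between high dose and control, and the reference signal of Tbx21 on 1 medium-dose array, at 234, stands above the rest.

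Within groups, perforin and the granzymes went together from dam to dam. With group means taken off, the correlation over the 20 arrays was 0.73 between Gzma and Gzmb, 0.61 between Prf1 and Gzma and 0.57 between Prf1 and Gzmb. Medium-dose dam 47 had the highest ratio of its group for Prf1 (2.24), Gzma (3.13) and Gzmb (2.62). How much of these correlations rests on that dam was not tested. Nkg7 went with Cd8b1 (0.73) more than with Prf1 (0.16), and Cd8b1 against Eomes (-0.40). These points share arrays, slides and reference RNA, and the values are a description. The genes most like the mean of the 8, of 15539 ranked, were Rad17 (0.83), Tut1 and Zfand2a (both 0.81), Lypla1 and Ankrd39 (both 0.80), Iigp1 and Gbp4 (both 0.79), Ccl5 (0.78), and Klrb1c and Klra8 (both 0.77). Iigp1 and Gbp4 are interferon-induced GTPases, Ccl5 is a chemokine of cytotoxic lymphocytes, and Klrb1c and Klra8 are natural killer cell receptors. Without Tbx21 in the mean, a choice made after its spot was seen, 5 of these 10 stayed among the top 10 and Snx19 led with 0.86. With slide means taken off as well, 3 of the 10 (Lypla1, Gbp4 and Tut1) stayed among the top 10, and Ms4a4b (0.89), Ceacam2 and Trim26 (both 0.88) led.

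Promoter sequence was available from RefSeq (GRCm38.p6) for 8 of the 9 genes. Runx proteins, which act beside the T-box factors in CD8 T cells, bind a core written TGTGGT. In the 250 bases before the start, on either strand, it occurred in 4 of 8 promoters (Prf1, Gzma, Gzmb and Nkg7), and in 14.0% of the 32851 promoters in the table. The variant TGCGGT occurred in 0 of 8 and in 5.1% of all. Parts of the T-box site, TCACAC and AGGTGT, which can overlap each other, occurred in 3 of 8 and 4 of 8, against 12.3% and 11.8% of all. The motifs were chosen after some had been counted, and a match of letters is not a bound site. The stretches before the Prf1, Gzma and Gzmb starts are shown because these genes went together, with the Runx core in capitals as read on either strand. They lie at chr10:61297586-61297750 on the plus strand, chr13:113100982-113101231 on the minus strand and chr14:56262335-56262584 on the minus strand, up to the annotated gene. For Prf1 165 bases are shown in place of 250, and the AGGTGT counted for Prf1 is not among them.
Prf1: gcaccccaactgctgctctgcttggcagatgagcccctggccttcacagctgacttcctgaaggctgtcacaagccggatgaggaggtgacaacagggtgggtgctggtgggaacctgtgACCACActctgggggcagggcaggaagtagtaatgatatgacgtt
Gzma: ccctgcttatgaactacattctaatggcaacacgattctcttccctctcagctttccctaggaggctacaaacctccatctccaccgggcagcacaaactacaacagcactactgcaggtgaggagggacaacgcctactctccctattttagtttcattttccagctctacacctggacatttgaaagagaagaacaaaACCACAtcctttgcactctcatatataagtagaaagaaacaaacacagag
Gzmb: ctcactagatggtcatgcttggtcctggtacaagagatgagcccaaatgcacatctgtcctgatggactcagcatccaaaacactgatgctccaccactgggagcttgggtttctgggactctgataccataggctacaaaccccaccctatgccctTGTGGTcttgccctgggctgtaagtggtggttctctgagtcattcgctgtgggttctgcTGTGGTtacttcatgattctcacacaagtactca

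Other genes of the same cells were followed through lists. These lists, like the cell markers below, were chosen with earlier results of these data known. Their calls are therefore a description and no independent support for the 9 genes. Of 7 other granzymes 2 were measured, Gzmd and Gzmm, and neither passed at the high dose (differences -0.10 and -0.12, adjusted p = 0.391 and 0.484 by limma). Of 18 measured genes of granule storage, processing and release 0 passed by limma, 4 had an unadjusted p under 0.05, and the list median was -0.03. Cathepsin C, which activates granzymes by removing a dipeptide, read 3.86 ± 0.21 in high-dose and 3.47 ± 0.19 in control dams (Ctsc, difference 0.39 ± 0.10, adjusted p = 0.0514 by limma). Cathepsin W, a protease of cytotoxic lymphocytes, read 1.22 ± 0.09 in high-dose and 1.62 ± 0.18 in control dams, with no overlap (Ctsw, difference -0.40 ± 0.11, adjusted p = 0.0927). Cystatin F, an inhibitor of cathepsin C, differed by -0.19 ± 0.08 (Cst7, adjusted p = 0.22).

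Among 11 death ligands and effector cytokines, 2 fell, 1 rose and the list median was 0.27. Of the 11 differences at the high dose 5 were negative and the rest positive, and 9 genes had an unadjusted p under 0.05. Interferon gamma, the main cytokine of these cells, read 1.25, 1.01, 0.87, 0.97 and 1.09 in high-dose dams, against 1.57, 1.51, 1.43, 1.66 and 1.79 in control dams. All high-dose dams lay below all controls (Ifng, difference -0.55 ± 0.11, adjusted p = 0.0207 by limma). The death ligand Fasl read 1.09, 0.94, 1.08, 0.83 and 0.87 in high-dose dams, against 1.14, 1.45, 1.34, 1.56 and 1.47 in control dams, again with no overlap (difference -0.43 ± 0.09, adjusted p = 0.0276). Csf2, a growth factor for macrophages that many cell types make, rose to 1.94 ± 0.35, against 1.37 ± 0.13 in control dams (difference 0.56 ± 0.12, adjusted p = 0.0228). Ccl5 differed by -0.50 ± 0.15 and did not pass (adjusted p = 0.105). The Ifng call was lost when control 15 or 18, or dam 62 or 63 of the high dose, was left out. For Fasl this held for controls 7, 15 and 18 and dams 62, 64 and 65, and for Csf2 it held for controls 7 and 15 and dams 62 and 63. The Ifng and Fasl calls were also lost with normexp correction, the software ratio, the lung channel alone and quantile scaling, and that of Fasl on the 10 arrays of these groups alone. With the lung channel alone the Ifng difference was -0.28, and over all 35 settings its adjusted p ranged from 0.00509 to 0.999 and that of Fasl from 0.0126 to 0.697. The Csf2 call was lost with normexp correction and on the 10 arrays alone (adjusted p over all settings 0.000191 to 0.165).

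Of 21 regulators and cytokine receptors of cytotoxic lymphocytes 1 fell, S1pr5, the sphingosine phosphate receptor that lets natural killer cells leave bone marrow and lymph nodes. It read 1.75, 1.61, 1.30, 1.64 and 1.5 in high-dose dams, against 1.78, 1.95, 2.26, 2.53 and 2.47 in control dams with no overlap (difference -0.64 ± 0.13, adjusted p = 0.0253 by limma). It no longer passed when control 14, 15 or 18, or dam 62 or 63 of the high dose, was left out, with normexp correction, the software ratio, the lung channel alone or quantile scaling, or on the 10 arrays alone. Il2rb, the receptor chain for interleukins 2 and 15, differed by -0.33 ± 0.10 and Il15 itself by -0.21 ± 0.07 (both adjusted p = 0.116).

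Receptors of natural killer cells had the most calls of these lists: 9 of 28 measured genes fell and 0 rose at the high dose. Of all genes 0.532% fell and 0.507% rose. The list median was -0.27, and 11 of 28 had all high-dose dams below all controls, beside 1.98% of all genes. Klrb1a, an NKR-P1 receptor, read 1.61, 1.57, 1.29, 1.38 and 1.31 in high-dose dams, against 1.99, 2.15, 2.10, 2.31 and 2.21 in control dams (difference -0.72 ± 0.09, 1.65-fold lower, adjusted p = 0.00166 by limma). Klra8 (Ly49H), an activating receptor of C57BL/6 mice, read 2.97, 2.57, 2.18, 2.17 and 2.18 in high-dose dams, against 3.12, 3.16, 3.27, 3.59 and 3.48 in control dams (difference -0.91 ± 0.14, adjusted p = 0.00392). Neither set overlapped. Klrb1c, the NK1.1 antigen that defines the cells in this strain, averaged 2.06 ± 0.30 at the high dose and 2.77 ± 0.23 in controls (adjusted p = 0.0189), with overlap. The others that fell were Klra7 (-0.74), Klra10 (-0.70), Klrd1 (CD94, -0.65), Cd7 (-0.48), Klra6 (-0.37) and Klrc3 (-0.28), with adjusted p from 0.0165 to 0.0445. The Klra genes are near-identical copies, so their probes may read one another and they are not independent measurements.

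The natural killer calls, too, ended with normexp correction, the software ratio and the lung channel alone, where 0 of 28 passed by limma, although 24, 25 and 24 of the 28 differences were negative. Klrd1 had a difference of 0.21 with the software ratio. On the 10 arrays of these groups alone 1 of 28 passed, and with quantile scaling 5. Leaving out 1 dam gave 2 calls (control 15) to 12 calls (dam 47 of the medium dose). In between, 3 genes passed when control 18 or dam 63 of the high dose was left out, 4 for dam 62, 5 for control 7, control 14 or dam 64, and 6 for dam 65. Klrb1a and Klra8 passed in each of the 20 omissions. Averaged over the list, each dam's mean was 1.15 to 1.41 in controls, 0.97 to 1.19 at the low, 0.95 to 1.30 at the medium and 0.87 to 1.1 at the high dose. At the low and the medium dose 0 of 28 passed by limma, with medians of -0.23 and -0.20 and an unadjusted p under 0.05 for 11 and 13 genes. Over all 19914 genes tested, 1493 and 2810 had an unadjusted p under 0.05 there. All dams lay below all controls for 5 of 28 at the low and 3 of 28 at the medium dose, beside 0.874% and 1.27% of all genes.

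Genes common to all T cells were set beside these lists, and the difference between lists was not tested. Of 21 measured 0 passed at the high dose by limma, 2 had an unadjusted p under 0.05, and the list median was -0.06. Cd27 differed by -0.25 ± 0.08 (adjusted p = 0.116), Cd2 by -0.28 ± 0.13 (adjusted p = 0.285) and Trat1 by -0.16 ± 0.08 (adjusted p = 0.309). Each dam's mean over the list was -0.28 to 0.07 at the high dose and -0.15 to 0.06 in controls. Of the 21 differences 20 were negative at the low (median -0.11), 17 at the medium (median -0.10) and 12 at the high dose, and at the low and medium dose 0 passed by limma, with an unadjusted p under 0.05 for 4 and 3 genes. Of 14 measured helper and regulatory T cell genes 1 rose, Tnfrsf4 (OX40, a co-stimulatory receptor of activated T cells), with 0.61 ± 0.17 in high-dose and 0.20 ± 0.12 in control dams and no overlap (difference 0.41 ± 0.08, adjusted p = 0.0189). This call was lost when dam 62 of the high dose was left out, with normexp correction, the software ratio or the lung channel alone, and on the 10 arrays alone. Foxp3 and Tnfrsf18, found in regulatory T cells, differed by 0.29 ± 0.09 and 0.21 ± 0.09 (adjusted p = 0.125 and 0.268). Of 12 class I presentation genes, whose products show peptides to CD8 T cells, 0 passed by limma and 1 had an unadjusted p under 0.05, with a median of 0.06. Its 3 smallest p belonged to Pdia3 (0.22), Tapbp (0.12) and Psmb8 (0.11).

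**Figure D5:**
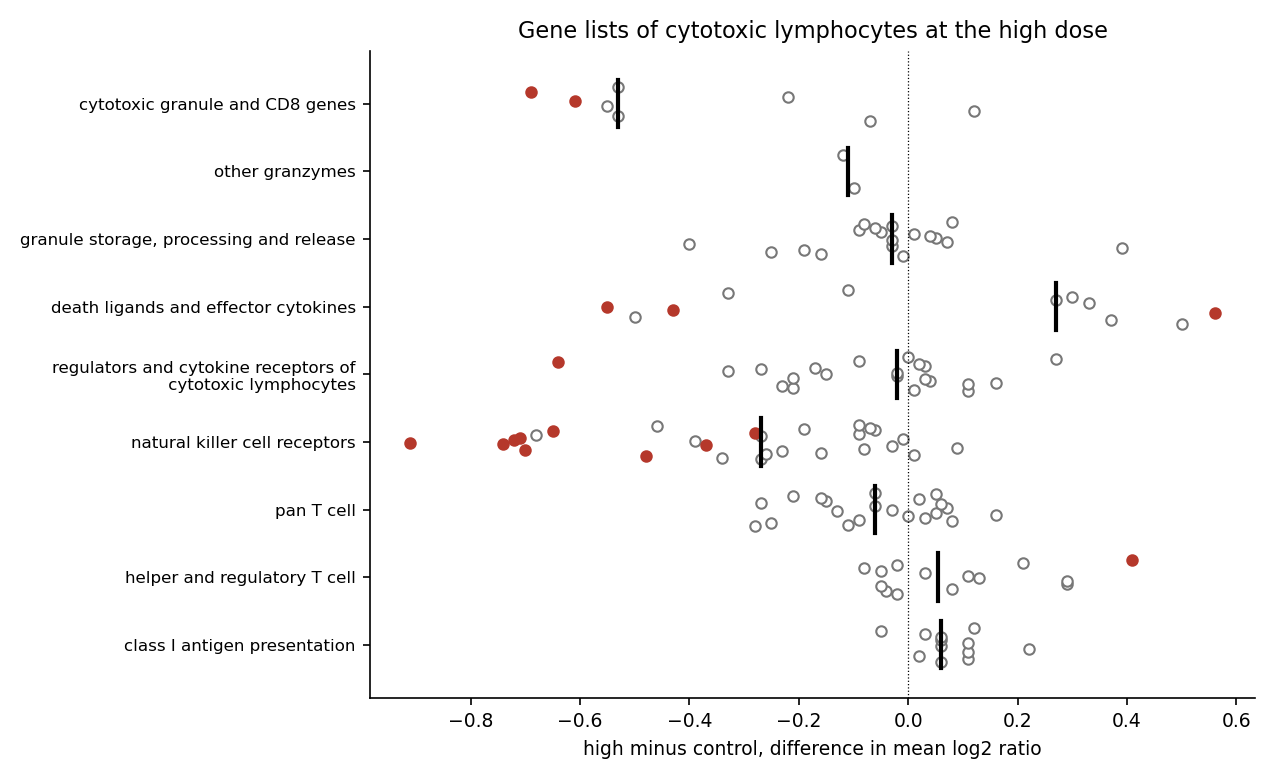
Difference between high-dose and control dams in mean log2 ratio (horizontal axis) for every measured gene of each list, filled where the gene passed at an adjusted p under 0.05 and open where it did not, with the list median as a vertical bar. The filled points of the natural killer list, 9 of 28, all lie left of 0, and no gene of the pan T cell list is filled; height within a list has no meaning.

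Markers of other cells were measured beside these genes. Of 10 neutrophil markers 10 were negative at the high dose, with a list median of -0.34. Each dam's mean over that list was 1.73 to 2.39 at the high dose and 2.22 to 3.14 in controls, and the medians were -0.54 at the low and -0.43 at the medium dose. Of them Camp, a granule peptide precursor, fell by 1.33 on the log2 scale (adjusted p = 0.0342 by limma), a call that was lost when control 7, 14 or 18, or dam 62, 64 or 65 of the high dose, was left out, and on the 10 arrays alone. Among 10 alveolar macrophage markers Siglecf, which eosinophils also carry, fell by 0.93 (adjusted p = 0.00392), while the list median was -0.02, with each dam's mean at 2.75 to 2.98 at the high dose and 2.87 to 3.38 in controls. No marker passed among 10 B cell, 14 lung and 10 cardiac muscle genes by limma, where the medians were -0.08, 0.09 and 0.04 and 0, 0 and 1 genes had an unadjusted p under 0.05. The Camp and Siglecf calls were both lost with normexp correction, the software ratio and the lung channel alone. Cardiac muscle markers varied between dams, from means of 1.22 to 2.81 at the high dose, 0.3 to 2.7 at the medium dose and 0.39 to 2.57 in controls. At the medium dose 10 of 10 were negative, with a median of -1.08. There 0 passed by limma and 4 had an unadjusted p under 0.05. The part of these cells in the values of the cytotoxic genes was not tested.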

How the data were processed

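Per the labels' protocols, lung RNA of each dam was amplified and hybridised in Cy5 against a universal reference RNA in Cy3. The authors deposited scanner tables whose signals and local backgrounds are intensity values, with the software's log10 ratio, and a value table of log2 ratios. Set against the scanner values, that table held the log2 ratio of Cy5 over Cy3 median signals plus a smooth function of intensity, with no background subtracted and array medians of -0.05 to -0.0315. How it was normalized is not stated in the labels or headers. Feature Extraction was version 9.5.1.1 on 18 arrays and 10.1.1.1 on 2, per the file headers, or 9.5.3.1, per the labels. Those 2 arrays were of medium-dose dams 49 and 50, on their own slide. They had the lowest shares of spots well above background in lung, 64.0% and 65.6%. Slide and software version cannot be told apart for these dams.

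From it, outlier spots were left out, spots of a probe averaged, probes kept when the lung channel was well above background on at least 3 of 5 arrays of a group, and the brightest kept probe taken for each gene with a value on at least 16 of 20 arrays. Of 41174 probes, 32719 had names matched in RefSeq's table and the other 8455 kept the file's name. Contrasts with control were fitted by limma 3.58.1 (lmFit, eBayes, R 4.3.3) on all 20 arrays with Benjamini-Hochberg adjustment. The number of arrays limits the precision. On simulated data of the high-dose comparison (19914 genes), 98 of 100 genes changed by 1 and 84 of 100 changed by 0.5 were recovered, with 7 false calls. The changes were planted in randomly picked genes with independent noise and no slide effects, so these shares do not carry over to the genes named here. The members, lists and tests were chosen with earlier results of these data known. Named are all members, called list genes and the 3 smallest p per pathway list, and the 10 most alike genes.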

Additional observations from a re-analysis of the deposited data

Results flagged for a closer look

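In groups of 5 dams, a value was set apart where its gap to the nearest other dam exceeded 0.71 of the group's range. Of 52 groups examined (13 probes in 4 groups) 5 held such a value, where chance gives about 1 in 20. Tbx21 stood at 0.85 in medium-dose dam 48, against 2.88 to 3.14 in the other medium-dose dams, on the array where its reference signal was 234 units. Gzma stood at 3.13 in medium-dose dam 47, against 2.23 to 2.45, and the lung signal of that spot was 1300 units. Gzmb stood at 1.89 in high-dose dam 60, against 1.68 to 1.74, still below every control. Eomes stood at 0.25 in high-dose dam 65, against 0.75 to 0.91. Gzmk, not above background in lung, stood at 0.06 in high-dose dam 65, against -0.23 to -0.17. The causes were not tested.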

How the results depend on the processing

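At the high dose 207 genes passed, 101 of them higher. The count was 15 with normexp correction, 9 with the software ratio and 18 with the lung channel alone, all of them higher. It was 21 (4 higher) on the 10 arrays of both groups alone and 130 (52 higher) with probes well above background on all arrays. It was 341 with probes averaged, 389 without a filter, 408 by probe, 617 with the slide as a block (303 higher) and 694 as a random block. Leaving out 1 dam gave 77 to 242 calls, fewest without high-dose dam 62 (77), control 15 (80), control 18 (101), high-dose dam 63 (111) or control 7 (128). At the medium dose 1 gene passed, against 3 with median centring, 3 without a filter, 5 without background correction, 2 with the slide as a block, 0 with normexp, the software ratio or the lung channel alone, and 1 to 9 without 1 dam (9 without control 4). At unadjusted p under 0.05 there were 1493 genes at the low, 2810 at the medium and 3291 at the high dose. At the low dose 1 gene passed, also 1 without any 1 dam, and 0 with normexp, the software ratio or the lung channel alone. Klrd1 turned to 0.21 with the software ratio. The causes were not tested. The groups share no replicate numbers, so dams were not paired by animal. Dams of different groups shared slides, and each of the 5 slides with a control also held a low-dose and a high-dose dam. The main fit left slides out, and they entered only as the block above and in the within-slide differences. Dim reference signals limit the ratios of Eomes, Prf1 and Cd8a.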
